A study of Mus musculus with 4 samples.

Results

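The 9 genes described here take part in enamel formation without encoding the enamel matrix: the vesicle protein gene Wdr72, the calcium exporter Slc24a4, the casein kinase scaffold Fam83h, the secretory pathway pseudokinase Fam20a, the magnesium transporter Cnnm4, the calcium store sensor Stim1, the tight junction claudin Cldn16, the calcium buffer Calb1 and the secreted protein Tspear. They were taken by symbol from the deposited gene table, and 9 of 9 were found among its 24972 rows. RNA had been measured at embryonic day 17.5 in mouse mandibular dental arches, which carry the lower teeth. The groups were Ascl5 WT/WT embryos (2 libraries, coded 15 and 20, called wild type here) and Ascl5 Mut/Mut embryos, homozygous for an Ascl5 variant (2 libraries, coded 18 and 14, called mutant). The labels give no strain, no description of the variant and no number of embryos per library. They do not say that the libraries came from separate embryos. The 2 wild-type libraries differed in the sex-linked RNAs Xist and Ddx3y, given below, so they did not come from the same embryo. For the mutant libraries this was not shown. The p-values therefore speak only of the spread among these samples, in mutant possibly technical.

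Enamel is laid down by ameloblasts, the epithelial cells of the tooth. They first secrete a protein matrix and later, in the maturation stage, remove it while moving calcium, phosphate and bicarbonate into the hardening layer. Amelogenesis imperfecta, inherited defective enamel, arises from matrix genes but also from genes for ion transport, pH control, vesicle traffic and protein phosphorylation. In the mouse molar the maturation stage comes after birth, so embryonic jaws hold the early part of this programme, and most of the genes studied are also used by other tissues of the jaw.

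Values are normalized counts per library, and each fold change is the mutant level less the wild-type level in log2(value + 0.5), from limma fitted to all 17979 genes with a mean of at least 1. Of those, 2 passed an adjusted p of 0.05 (0.0111%), and 0 of the 8 tested genes of the set did. At an unadjusted p under 0.05, 768 genes passed (4.27%), and again 0 of the 8, though Fam83h came under it with a filter at a mean of 10 and without mutant 18. The genotypes did not overlap for 3 of 8, against 27.4% of all tested genes, so the share of the set lay near the background. These were 2 genes higher in both mutant libraries, Fam83h and Slc24a4 (background 13.4%), and 1 lower, Fam20a (background 14%). The median log2 fold change of the 8 genes was -0.015, beside 0.0025 over all tested genes. For a single gene in this 2 against 2 design, the smallest p of an exact permutation test (two-sided) is 0.333.

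The libraries summed to between 22134483 and 22578580 normalized counts. Ascl5 itself was at 21.8 and 37.3 in wild type 15 and 20 against 10.6 and 12.1 in mutant 18 and 14. The genotypes did not overlap and the difference did not pass (limma, adjusted p = 0.9999). What the variant does to this transcript is not stated. The inactive X chromosome RNA Xist was at 38619 in wild type 15 and at most 12.7 in the others, and the Y-linked Ddx3y, at no less than 2382 in the others, was listed at 0 there, so sex was not balanced between genotypes. The 10 salivary gland markers fixed for this tissue, Smgc and Bpifa2 among them, summed to 6436 in mutant 14 and to between 4.98 and 46.8 in the other libraries. The labelled tissue was present in every library: the enamel gene Amelx, the dentin gene Dspp and the dental transcription factors Pax9 and Barx1 were above 0 throughout.

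Per kilobase of merged exons (GENCODE, GRCm38), Stim1 was the most abundant of the set, at 145 ± 12.9 normalized counts per kb (SD, n = 4 libraries). Fam83h followed at 122 ± 38.1, Fam20a at 86.5 ± 12.6, Cnnm4 at 85.6 ± 15.5 and Calb1 at 80.5 ± 40.5. Stim1 exceeded Fam83h in 3 of 4 libraries and Fam83h exceeded Fam20a in 3 of 4, while Fam20a, Cnnm4 and Calb1 changed places between libraries, so those neighbours did not differ beyond their spread. Tspear, at 22.6 ± 1.76 per kb, lay below Calb1 in 4 of 4 libraries. Slc24a4 at 7.58 ± 1.90 and Wdr72 at 4.43 ± 1.82 were the lowest of the detected genes, in that order in 4 of 4 libraries. Cldn16 was listed at 0 in every library.

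**Figure D1:**
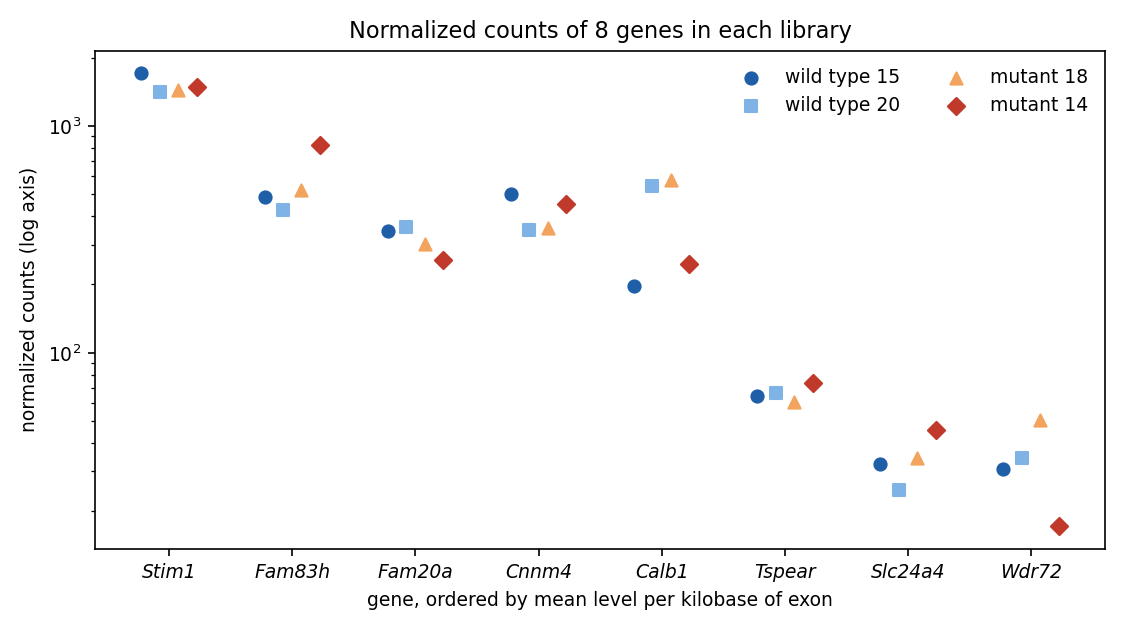
Normalized counts (log axis) of the 8 detected genes in each of the 4 libraries, ordered by mean level per kilobase of exon; each point is 1 library. The wild-type and mutant points of Stim1 and Tspear lie close together, those of Calb1 fall into a low pair (wild type 15, mutant 14) and a high pair (wild type 20, mutant 18), and the points of Fam83h are topped by mutant 14.

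RefSeq promoters (GRCm38.p6) were matched for 5 of the 9 genes, Slc24a4, Fam20a, Cnnm4, Stim1 and Cldn16. Ascl5 encodes a basic helix-loop-helix factor, a class that binds the E-box CANNTG, and the stretches before the starts of Slc24a4 and Fam20a are shown because these were the promoters available for genes whose genotypes did not overlap, 1 in each direction. Each runs 5′ to 3′ on the gene's strand, with E-box letters in capitals, and ends before the first GENCODE transcript start, which cuts the Fam20a stretch to 209 bases.
Slc24a4, chr12:102128477-102128726, plus strand: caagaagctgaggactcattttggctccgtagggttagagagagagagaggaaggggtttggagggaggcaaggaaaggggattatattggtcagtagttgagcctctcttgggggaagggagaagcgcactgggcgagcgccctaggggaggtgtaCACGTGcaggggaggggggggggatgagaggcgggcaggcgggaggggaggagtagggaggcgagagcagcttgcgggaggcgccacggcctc
Fam20a, chr11:109722280-109722488, minus strand: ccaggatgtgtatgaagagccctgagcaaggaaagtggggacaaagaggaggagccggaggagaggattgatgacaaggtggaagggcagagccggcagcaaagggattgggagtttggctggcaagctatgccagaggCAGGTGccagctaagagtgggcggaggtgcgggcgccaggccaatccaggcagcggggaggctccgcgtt
CANNTG reads the same on both strands, so 1 search covers both. In the whole 250 bases before each RefSeq start, those not printed included, it matched once each in Slc24a4, Fam20a and Stim1 and not in Cnnm4 or Cldn16, that is 3 of 5, where 66.2% of 32851 RefSeq promoters hold it. The narrower CAGCTG, a subset of CANNTG that pairs with itself on the other strand, matched in 0 of 5, against 13.0% of all promoters. A match is a run of letters and was not tested as a binding site.

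The set held 3 genes of calcium handling: an exporter, a store sensor and a buffer. Slc24a4 encodes a potassium-dependent sodium/calcium exchanger that moves calcium out of maturing ameloblasts (chromosome 12, 102128733 to 102267091, plus strand). It was at 32.3 and 24.8 normalized counts in wild type 15 and 20 against 34.4 and 45.6 in mutant 18 and 14. Both mutant values lay above both wild-type values, with mutant 18 close to wild type 15. The log2 fold change was 0.48 (SE 0.38, 95% interval -0.41 to 1.37) and did not pass (limma, adjusted p = 0.9999). It was 0.27 without mutant 14, 0.29 without wild type 20, 0.66 without wild type 15 and 0.68 without mutant 18. An antisense gene, Gm16339, overlaps it on the other strand and the strand setting of the counting is not given, so the level is uncertain. Its close relative Slc24a3 was more abundant per length, at 63.3 normalized counts per kb against 7.58, and its genotypes overlapped (267 ± 27.5 in wild type against 311 ± 52.7 in mutant, n = 2 each).

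Stim1 (chromosome 7, 102267806 to 102437319, plus strand) senses calcium in the endoplasmic reticulum and opens the plasma membrane channel Orai1 when the store empties. It was at 1703 and 1412 normalized counts in wild type against 1435 and 1477 in mutant. Wild type 15 was the highest, the other 3 libraries lay close together, and the genotypes overlapped. The log2 fold change was -0.09, with a 95% interval from -0.43 to 0.24. Its paralogue Stim2 had the same shape over the libraries, at 1416 and 1231 in wild type against 1268 and 1299 in mutant. The channel Orai1 was at 303 ± 20.4 in wild type against 304 ± 46.3 in mutant (n = 2 each).

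Calb1, calbindin, buffers calcium in the cytosol and is abundant in ameloblasts as well as in some neurons and kidney tubules (chromosome 4, 15881264 to 15908064, plus strand). It was at 196 and 542 normalized counts in wild type 15 and 20 against 576 and 247 in mutant 18 and 14. Each genotype thus held 1 low and 1 high library, 2.76-fold apart in wild type and 2.33-fold apart in mutant. The fitted difference between genotypes was smaller than either gap, at a log2 fold change of 0.21 (95% interval -0.98 to 1.40). Its direction rested on the libraries: it was -0.52 without wild type 15, -0.40 without mutant 18, 0.94 without wild type 20 and 0.82 without mutant 14. Over all 14669 genes with a mean of at least 20, the range of Calb1 over the libraries exceeded that of 96.5% of them. Its relative Calb2 was low, at 11.1 ± 2.44 in wild type against 7.87 ± 0.36 in mutant.

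The same pair of libraries was low for the enamel matrix. Amelx, the main matrix protein gene, was at 263 and 1621 in wild type 15 and 20 against 2421 and 868 in mutant 18 and 14, while Enam had 175, 1490, 1570 and 232 for those libraries. Likeness between genes was measured as the root mean square difference of their log2 values after centring each gene on its mean over the 4 libraries. The size of the swing was not scaled, so 2 genes with the same order of libraries can lie far apart. Of 243 genes in the fixed lists, Dspp, the dentin matrix gene, lay nearest to Calb1 (0.22 log2 units), at 687, 1346, 1910 and 629. Ambn was 0.47 from Calb1, Amelx 0.63 and Enam 0.79. The osteoclast protease Ctsk, which lay 0.28 from Calb1, showed the same 2 low libraries, at 15154, 25115, 30131 and 12475. The 12 ameloblast and dental epithelium markers summed to 6461, 12980, 9149 and 6185, and the 8 osteoclast markers to 40559, 61043, 72082 and 31913. The epithelial markers differed among themselves: 10 of 12 had a log2 fold change below 0 and 5 were lower with no overlap (background 14%). Their median was -0.50. With each library left out, it ran from -1.42 without wild type 15 to -0.16 without wild type 20. Unlike Amelx and Enam, the signalling gene Shh was lowest in mutant 18, at 371 and 684 in wild type against 161 and 205 in mutant, and so was Vwa2, at 463 and 817 against 245 and 315. None of the 12 passed. No marker of either list was at 0 in every library. The part of either tissue in the Calb1 values was not tested, and in bulk samples fewer cells of a type and less RNA per cell cannot be told apart.

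Other calcium and acid-base transporters of epithelia showed no common direction. Of 45 tested in that list, 0 passed in either direction. Without overlap, 6 were higher in mutant (background 13.4%) and 7 were lower (background 14%). The median log2 fold change was 0.046, and ran from -0.015 without wild type 20 to 0.066 without mutant 14. The bicarbonate cotransporter Slc4a4 was at 371 ± 35.3 in wild type against 383 ± 21.8 in mutant (n = 2 each). The smallest unadjusted p values belonged to Slc13a5, a citrate transporter, at 2638 and 2929 in wild type against 1987 and 1543 in mutant (log2 fold change -0.67, limma, adjusted p = 0.536), to the phosphate transporter Slc34a2 (1.23, adjusted p = 0.905) and to the sodium/calcium exchanger Slc8a3 (-0.43, adjusted p = 0.9999). In the list of store-operated entry and calcium buffers, 0 of 25 passed, 3 did not overlap and were higher, 4 were lower, and the median was -0.020 (-0.069 without mutant 18, 0.089 without mutant 14). Its smallest p values were those of Tmem110, a regulator of Stim proteins (-0.27), the pump Atp2a3 (0.78) and the buffer S100g (-2.06), which was at 22.2, 3.93, 0 and 11.1 in libraries 15, 20, 18 and 14.

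Wdr72 encodes a protein with WD repeats needed for vesicle turnover in maturation ameloblasts (chromosome 9, 74110356 to 74283308, plus strand). It was at 30.7 and 34.4 normalized counts in wild type against 50.4 and 17.2 in mutant 18 and 14. The 2 mutant libraries were the highest and the lowest of the 4 and lay 2.93-fold apart, and the wild-type libraries differed by 1.12-fold. The log2 fold change was -0.14 (95% interval -1.38 to 1.11). It turned to 0.62 without mutant 14 and was -0.90 without mutant 18. Among the fixed lists Atp6v0d2, an osteoclast subunit of the proton pump, lay nearest (0.17 log2 units), at 1762, 2672, 3220 and 1287. Amelx lay farther from Wdr72 (1.08) than from Calb1. The sum of the 10 skeletal muscle markers was also highest in mutant 18 and lowest in mutant 14, at 173147 and 129001 in wild type against 197309 and 104647 in mutant, although Ryr1, Atp2a1 and Myog did not follow that order. Their part in the Wdr72 values was not tested.

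The relative Wdr7, which acts with the V-ATPase, was at 739 and 673 in wild type against 802 and 700 in mutant, and per length it was far above Wdr72 (71.5 against 4.43 normalized counts per kb). Rogdi, a gene of a syndrome with amelogenesis imperfecta, was at 299 ± 15.5 and 307 ± 12.9 (n = 2 each). Of 27 tested genes of vesicle acidification, 0 passed, and the median was 0.042. With no overlap, 2 were higher (background 13.4%) and 0 were lower (background 14%). The list median was 0.22 without mutant 14, 0.19 without wild type 20, -0.049 without wild type 15 and -0.13 without mutant 18. The 2 with no overlap were the epithelial subunits Atp6v1c2, at 97.7 and 106 in wild type against 171 and 300.1 in mutant (log2 fold change 1.15, limma, adjusted p = 0.622), and Atp6v1b1 (0.54). Atp6v0e2 (0.38) had the next smallest p and overlapped.

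Fam83h binds casein kinase 1 and places it at keratin filaments, and truncated forms cause dominant hypocalcified enamel (chromosome 15, 76001093 to 76014336, minus strand). It was at 486 and 424 normalized counts in wild type 15 and 20 against 523 and 821 in mutant 18 and 14. Both mutant values lay above both wild-type values, with mutant 14 well apart from the rest. The mean was 455 ± 43.8 in wild type against 672 ± 211 in mutant (n = 2 each), a log2 fold change of 0.53 (SE 0.23, 95% interval -0.0015 to 1.06). It did not pass (limma, adjusted p = 0.9999, unadjusted p = 0.0505). Without mutant 14 the log2 fold change was 0.20, and without mutant 18 it was 0.85 (limma, unadjusted p = 0.0101, adjusted p = 0.525). With the filter at a mean of 10 the unadjusted p was 0.0476. K230010J24Rik overlaps the gene on the other strand, so its reads could not be told apart if strand was not used in counting.

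Most relatives of Fam83h had fold changes of the same sign. Of the 7 other FAM83 genes, 6 had a log2 fold change above 0 and Fam83e, a low gene, had -0.92; 4 were higher in mutant with no overlap, 3 overlapped and 0 were lower with no overlap (background 13.4% higher), and the median log2 fold change was 0.58. Fam83a was at 206 and 219 in wild type against 331 and 381 in mutant (log2 fold change 0.74), Fam83b at 516 and 557 and 698 and 926 (0.58), Fam83c at 57.0 and 49.7 and 85.7 and 133 (1.0), and Fam83g at 386 and 347 and 455 and 692 (0.62). None of them passed (limma, adjusted p from 0.582 to 0.988). The family median was 0.31 without mutant 14 and 0.80 without mutant 18. The casein kinase 1 genes had log2 fold changes from -0.16 (Csnk1g3) to 0.06 (Csnk1a1). Of the whole list of 13, relatives and kinases together, 0 passed, 5 did not overlap and were higher, 1 was lower, and the median was 0.064, which ran from 0.026 without wild type 20 to 0.79 without mutant 18.

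Fam83h was highest in mutant 14, while its 523 in mutant 18 lay close to the 486 in wild type 15. Keratinocyte markers were also highest in mutant 14. All 10 of them, among them Krt10 and the desmosomal cadherin Dsg1a, lay higher in mutant with no overlap (background 13.4%). Their sums were 103273 and 91053 in wild type against 158124 and 245528 in mutant. Krt10 was at 26688 and 18842 in wild type against 44334 and 75914 in mutant. By root mean square difference, Dsg1a lay 0.21 log2 units from Fam83h and 0.21 from Slc24a4, and Krt10 lay 0.44 and 0.47 from them. Amelx lay 1.29 from each, but it varied widely itself and lay about as far from Tspear (1.24) and Stim1 (1.31). Its distance thus does not set Fam83h and Slc24a4 apart. The nearest gene of the fixed lists to Fam83h was Cldn1 (0.032), a claudin of epidermis and oral lining, at 1317, 1193, 1393 and 2296. The nearest to Slc24a4 was Atp6v1b1 (0.037), and of the set itself Fam83h and Slc24a4 were each other's nearest (0.11). Markers of some other cell types had fold changes of the same sign. All 7 melanocyte markers were higher in mutant with no overlap (background 13.4%), at a median log2 fold change of 1.44. Their sums were 346 and 378 in wild type against 505 and 544 in mutant. The 10 neuron markers all had a log2 fold change above 0, 2 of them with no overlap. Their median was 0.87, and it turned to -0.30 without mutant 14. The neuron and salivary sums were highest in mutant 14. No gene of these 4 lists passed. The part of lining epithelium or of these other cells in the Fam83h and Slc24a4 values was not tested.

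**Figure D2:**
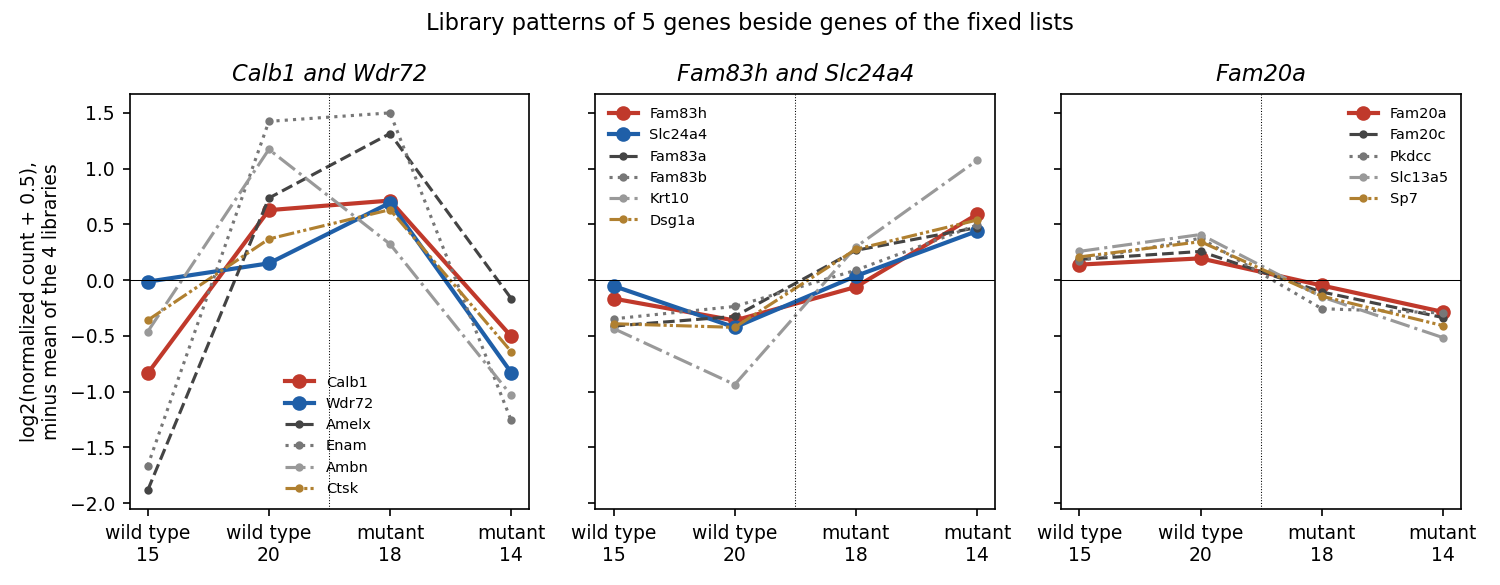
Log2(normalized count + 0.5) minus each gene's mean over the 4 libraries; coloured lines are Calb1 and Wdr72, Fam83h and Slc24a4, and Fam20a, and grey or brown lines are companion genes of the fixed lists, chosen after their values were seen. Lines only join the values of 1 gene. Calb1 shares its low libraries, wild type 15 and mutant 14, with Amelx and Enam, Fam83h and Slc24a4 are highest in mutant 14, and Fam20a is lower in both mutant libraries.

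Fam20a is a pseudokinase of the Golgi that raises the activity of Fam20c, the kinase that phosphorylates secreted enamel and bone proteins (chromosome 11, 109669749 to 109722279, minus strand). It was at 343 and 357 normalized counts in wild type against 302 and 256 in mutant 18 and 14. Wild type lay above mutant without overlap, and mutant 14 was the lowest. The mean was 350.3 ± 9.63 in wild type against 279 ± 32.4 in mutant (n = 2 each), a log2 fold change of -0.33 (SE 0.18, 95% interval -0.76 to 0.089), which did not pass (limma, adjusted p = 0.9999). It was the only one of the 8 below 0 with every library left out in turn, from -0.45 without mutant 18 to -0.22 without mutant 14.

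Fam20c, the partner kinase, had the pattern nearest to Fam20a among the fixed lists (0.055 log2 units). It was at 1161 and 1221 in wild type against 949 and 809 in mutant (log2 fold change -0.44, limma, adjusted p = 0.901). Fam20b, the xylose kinase of proteoglycan synthesis, overlapped, at 2369 and 2137 in wild type against 2195 and 2138 in mutant. Of the 12 secretory pathway kinases other than Fam20a, 0 passed, 10 had a log2 fold change below 0, 5 were lower with no overlap (background 14%) and 1 was higher, Fam69a, with a list median of -0.18. The other 4 lower genes were Pkdcc, a secreted tyrosine kinase of skeletal growth, at 2486 and 2857 in wild type against 1843 and 1795 in mutant (-0.55, adjusted p = 0.536), Fam69b (-0.26), Fam69c (-0.39) and 4930578C19Rik (-0.33). The list median stayed between -0.25 and -0.13 with each library left out. Osteoblast markers lay lower as well: of 8, 5 were lower with no overlap (background 14%), and Bglap, Ibsp and Spp1 overlapped. The sums of the 8 were 702288 and 725252 in wild type against 603021 and 525935 in mutant. Most of each sum was Col1a1, at 541155 and 519187 in wild type against 412514 and 417344 in mutant. Other lists had the same sign: 6 of 8 cartilage markers (median log2 fold change -0.44), 6 of 10 dental mesenchyme and odontoblast markers (-0.41) and 5 of 12 ameloblast and dental epithelium markers were lower with no overlap, and none passed. The part of any of these cells in the Fam20a and Fam20c values was not tested.

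Cnnm4 handles magnesium at the cell surface, and its loss causes Jalili syndrome, with retinal dystrophy and defective enamel (chromosome 1, 36471620 to 36508764, plus strand). It was at 499.9 and 348 normalized counts in wild type against 354 and 452 in mutant. Each genotype held 1 higher library, wild type 15 and mutant 14, which is the reverse of the Calb1 order. The log2 fold change was -0.06 (95% interval -0.58 to 0.47), and it turned to 0.20 when wild type 15 was left out and to 0.12 when mutant 18 was. The paralogue Cnnm2 was at 179 and 175 in wild type against 144 and 156 in mutant (-0.23), lower with no overlap, and the neuronal relative Cnnm1 at 74.9 and 36.7 and 80.5 and 140.3 (1.01, limma, adjusted p = 0.9999). The 10 neuron markers were likewise highest in mutant 14, with a sum of 4079 there against 1353 to 1485 in the other 3 libraries. Of 18 magnesium transport genes, 0 passed, 2 were higher with no overlap (background 13.4%) and 3 were lower (background 14%). The median was 0.0091 (-0.076 without mutant 18, 0.050 without mutant 14). Ptp4a3, a phosphatase that binds CNNM proteins (-0.19), and Slc41a2 (-0.36) followed Cnnm1 in p.

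Cldn16 forms tight junction pores for magnesium and calcium, best known in the kidney, and was listed at 0 in all 4 libraries (chromosome 16, 26463135 to 26482765, plus strand). It therefore entered no test, and no difference between genotypes could be seen at this depth. Its kidney partner Cldn19 was low, at 18.8 and 12.7 in wild type against 7.004 and 7.47 in mutant, below wild type in both (log2 fold change -1.05, SE 0.55, limma, adjusted p = 0.9999). Of 22 other claudins and junction proteins, 20 were tested, and Cldn14 and Cldn18 lay below the filter. Of the 20, 0 passed, 4 were higher with no overlap (background 13.4%) and 3 were lower (background 14%). The median was 0.23, which was -0.0048 without mutant 14, 0.077 without wild type 20, 0.39 without wild type 15 and 0.61 without mutant 18. Cldn6, a claudin of embryonic epithelia, was at 103 and 166 in wild type against 37.1 and 65.1 in mutant (-1.41, adjusted p = 0.650), while Cldn4 (0.76) and Cldn23 (0.998) lay higher.

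Tspear encodes a secreted protein with EAR repeats, and its loss in people causes ectodermal dysplasia with missing or misshapen teeth (chromosome 10, 77686569 to 77887021, plus strand). It was at 64.6 and 66.3 normalized counts in wild type against 61.0 and 73.3 in mutant. The mutant values were the lowest and the highest of a narrow range, and the log2 fold change was 0.03 (95% interval -0.65 to 0.70). The range over the libraries exceeded that of 30.3% of genes with a mean of at least 20, beside 31.7% for Stim1. Its introns hold a cluster of hair keratin-associated protein genes: 26 annotated genes overlap it, and 13 are rows of the table. Krtap12-1 among them was at 2.08 and 0.99 in wild type against 13.4 and 9.15 in mutant (log2 fold change 2.56, limma, adjusted p = 0.745), chosen after its values were seen. Of the 5 other EAR-repeat genes 0 passed, with a median of 0.12, which fell to 0.011 if wild type 15 was left out and turned to -0.089 if wild type 20 was. Lgi3 (0.33) was higher and Lgi2 (-0.08) lower with no overlap, and Adgrv1 (-0.64) overlapped.

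**Figure D3:**
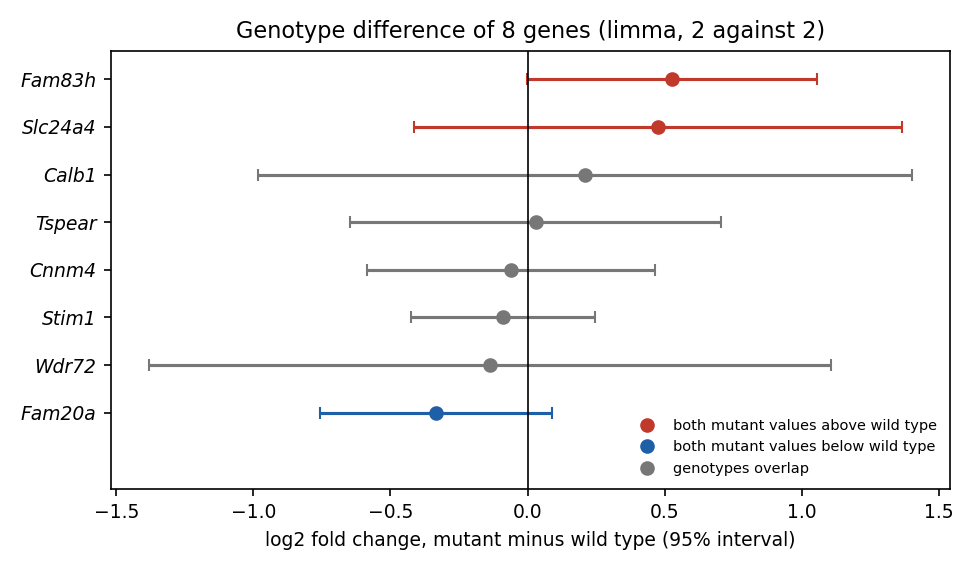
Log2 fold change (mutant minus wild type) of the 8 detected genes with its 95% interval from limma; colour marks whether the 2 mutant values lay above, below or among the 2 wild-type values. Every interval includes 0, that of Fam83h by the narrowest margin (-0.0015 to 1.06).

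Over all 13848 named genes with a mean of at least 20, the nearest library patterns were those of Smtnl1 for Wdr72 (0.075 log2 units), Unc13b for Slc24a4 (0.022), Aif1l for Fam83h (0.026), Pbdc1 for Fam20a (0.0032), Aoc3 for Cnnm4 (0.0075), Stil for Stim1 (0.0029), Rbp7 for Calb1 (0.12) and Adrm1 for Tspear (0.0076). Smtnl1, a gene of muscle, was at 110 and 118 in wild type against 172 and 53.9 in mutant. Rbp7, a retinol-binding protein gene, was at 8.42, 30.4, 29.6 and 12.2. These distances rest on 4 libraries, and with so many genes a close neighbour is found for most patterns. Stim1 had its paralogue Stim2 as the nearest gene of the fixed lists (0.035), and Tspear had Atp6v0d1 (0.039). For Cnnm4 it was the exchanger Slc8a2 (0.078).

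The other amelogenesis imperfecta genes did not pass either. Of 29 tested, 0 passed in either direction, 3 were higher with no overlap (background 13.4%) and 7 were lower (background 14%). Their median log2 fold change was -0.18. Leaving out wild type 20 brought that median to -0.0078, and leaving out mutant 14 brought it to -0.040. The dental transcription factor Msx2 was at 473 and 550 in wild type against 286 and 305 in mutant (-0.79) and Dlx3 at 1835 and 2003 and 1273 and 1492 (-0.48), both lower with no overlap. Of the matrix genes, Ambn was at 802 and 2491 in wild type against 1383 and 540 in mutant, and the protease Mmp20 at 45.7 and 144 and 61.8 and 10.1. Both overlapped between genotypes. The later enamel protease Klk4 was low, at 9.42 and 26.6 in wild type against 6.67 and 1.02 in mutant, lower with no overlap (log2 fold change -2.31, limma, adjusted p = 0.9999).

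**Figure D4:**
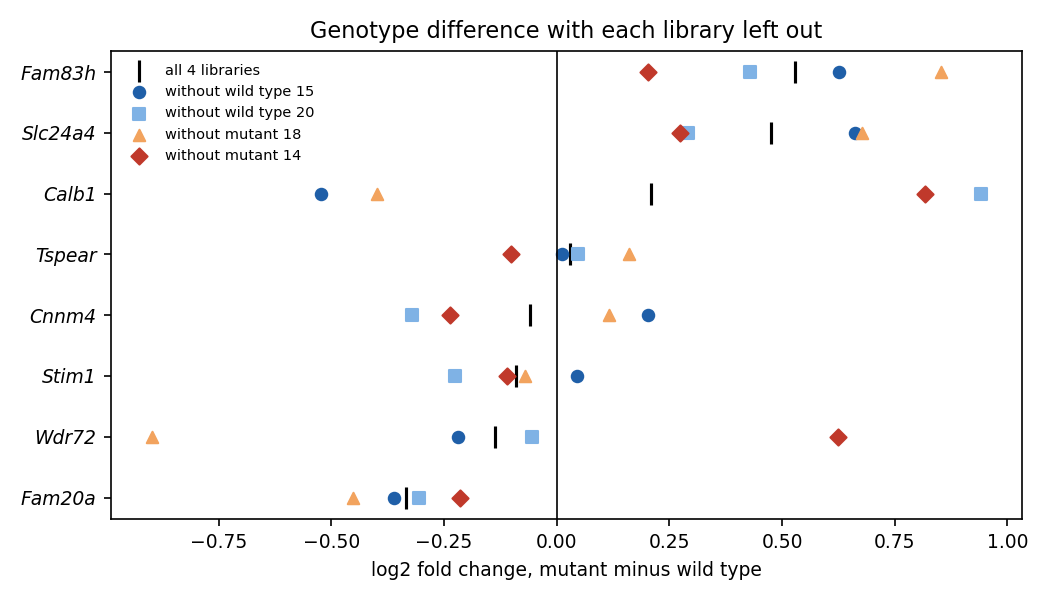
Log2 fold change of the 8 detected genes with all 4 libraries (vertical tick) and with each library left out in turn (coloured points). Fam83h and Slc24a4 stay above 0 and Fam20a stays below 0, while Calb1 runs from -0.52 to 0.94 and Wdr72 from -0.90 to 0.62.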

How the data were processed

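The deposited values are a signal: normalized counts per gene and library, made by the authors. Per the submitters' processing notes DESeq2 and build mm10 were used, with no version. Aligner, counter, use of strand and annotation: not given in the sources used here. Dividing each library by its commonest low value made 32.3% to 35.0% of nonzero values whole (tolerance 0.1), so reads were not recovered and no count model was run. After a filter at a mean of 1 (17979 of 24972 genes kept), limma 3.58.1 (R 4.3.3) was run on log2(value + 0.5) for genotype, using a variance trend and Benjamini-Hochberg adjustment over all of them at 0.05. The fit was also run on simulated data with the same dispersion for every gene, which does not show how well it performs on these libraries. No pair of libraries shared an identical value among genes at 20 or more.

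The genes studied and all lists were chosen with earlier results of these data known. Named genes are the 9, Ascl5, fixed partners, the 3 smallest p of each list and the nearest patterns, with others marked; a fixed partner is not reported here. Older symbols were matched through RefSeq, and coordinates and exon lengths come from GENCODE vM21 (GRCm38). Alternatives covered pseudocounts, filters, scaling, variance trend, weights and each library left out.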

Additional observations from a re-analysis of the deposited data

How the results depend on the processing

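No paired analysis was possible because the genotypes share no replicate number. Of 96 fold changes of the 8 genes under 12 alternatives, 88 kept their direction and stayed short of the threshold, and 8 turned. Those were Wdr72 without mutant 14 (0.62), Cnnm4 without wild type 15 (0.20) and without mutant 18 (0.12), Stim1 without wild type 15 (0.045), Calb1 without wild type 15 (-0.52) and without mutant 18 (-0.40), and Tspear without mutant 14 (-0.10) and with libraries rescaled to equal medians (-0.0088). With each library left out, the range was -0.90 to 0.62 for Wdr72, -0.32 to 0.20 for Cnnm4, -0.23 to 0.045 for Stim1, -0.52 to 0.94 for Calb1 and -0.10 to 0.16 for Tspear. Fam83h, Slc24a4 and Fam20a turned under none of the 12, and 0 genes of the set were called under any. Over all genes the count of 2 calls became 1 with no filter, 1 with the variance trend off and 0 with vooma weights (724 genes at an unadjusted p under 0.05), and it ranged from 0 to 5 when each library was dropped, which leaves 1 residual degree of freedom; the cause was not tested. The median of the 8 genes ranged from -0.0032 to 0.050 with a library left out. Depth limits Wdr72 and Slc24a4 most, both at no more than 50.4 normalized counts in any library, and Cldn16, listed at 0.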
